A study of Homo sapiens with 72 samples.

Results

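The messenger RNA levels of 34 genes of glycolysis and glucose uptake were followed in 36 poly(A)-selected RNA-seq libraries from 2 human cancer cell lines. The genes were taken from a list of names, chosen with earlier results of these data known. The bearing of that choice on the shares of genes called below was not tested. The genes include the glucose transporters SLC2A1, SLC2A3 and SLC2A12, and the enzymes that take glucose to pyruvate and lactate (HK1, HK2, GPI, PFKL, PFKM, PFKP, ALDOA, ALDOC, TPI1, GAPDH, PGK1, PGAM1, ENO1, ENO2, ENO3, PKM, LDHA and LDHB). Others set the level of the allosteric activator fructose 2,6-bisphosphate (PFKFB2, PFKFB3, PFKFB4 and TIGAR). Pyruvate dehydrogenase, which turns pyruvate into acetyl-CoA, is covered by its subunits (PDHA1 and PDHB) and its inhibitory kinases (PDK1, PDK2, PDK3 and PDK4). The rest are the lactate exporters SLC16A1 and SLC16A3, and the gluconeogenic enzyme FBP1. All 34 were found among the 26485 genes of the count files, and all 34 were among the 15556 genes with enough reads to be tested.

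The lines differed along 2 axes, the catalytic activity of the terminal uridylyltransferases TUT4 and TUT7, which add uridines to the 3′ ends of RNAs, and the RNA-binding protein LIN28A, which recruits them to the let-7 precursor. DU145 is a prostate cancer line with almost no LIN28A mRNA, and IGROV1 is an ovarian cancer line that expresses it. In each line, wild type (WT) cells were set beside a pair of TUT4/7 catalytic knockout (cKO) lines, made with the Cas9 nickase, and each cKO line is 1 clone. The same 3 DU145 lines were also transduced with a lentivirus that drives LIN28A from the CMV promoter and selected with puromycin (LIN28A-OE), with no empty-vector line among the samples, so LIN28A cannot be told apart from transduction, selection and passage number in that axis. Each of the 9 groups held 4 libraries, taken at successive passages: a late passage (up to 160) for WT DU145, passages 9 to 12 for cKO 1 and 8 to 11 for cKO 2, passages 1 to 4 for all 3 LIN28A-OE lines, and passages 6 to 9, 2 to 5 and 3 to 6 for WT, cKO 1 and cKO 2 IGROV1. DU145 was grown in EMEM with sodium pyruvate and IGROV1 in RPMI, so line and medium cannot be told apart. In DU145 without LIN28A-OE, genotype cannot be told apart from passage number. In IGROV1 all passages of cKO 1 lie below those of WT, and cKO 2 shares only passage 6 with WT. Genotype and passage number can thus hardly be told apart there. In every background genotype cannot be told apart from the isolation of clones. Since the libraries of a group are passages of 1 line or clone, P-values measure the spread between such passages.

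Gene counts summed to between 7195437 and 25054688 per library. Levels are given as CPM, gene counts relative to library sizes scaled by the trimmed mean of M values, and a gene was called when the adjusted p of edgeR's quasi-likelihood test over all 15556 genes was below 0.01. In the knockout lines the mean mRNA level of the targets was below WT but was not lost, and the fall of TUT4 mRNA was not called in every clone. The study reports by Western blot that both proteins were depleted in both clones of DU145 and IGROV1. It also reports less mono-uridylation of miRNAs in the mutants, so the mRNA level is no measure of the knockout. ZCCHC11, the gene of TUT4, was at 82.2 ± 6.23 CPM in WT IGROV1 (SD, n = 4, as for every ± below), 28.8 ± 10.8 in cKO 1 and 27.9 ± 6.17 in cKO 2. In DU145 it was at 56.5 ± 10.1, 11.9 ± 4.62 and 38.2 ± 8.36, and its difference in cKO 2 was not called (adjusted p = 0.071). ZCCHC6, the gene of TUT7, was at 35.6 ± 5.04, 19.4 ± 6.24 and 12.98 ± 2.52 in IGROV1 and 43.003 ± 8.702, 14.03 ± 5.62 and 21.9 ± 5.21 in DU145. In the LIN28A-OE lines ZCCHC11 was at 66.7 ± 10.7 CPM in WT, 19.3 ± 3.77 in cKO 1 and 56.04 ± 1.97 in cKO 2. Its difference in LIN28A-OE cKO 2 was small and not called by edgeR's test (log2 fold change -0.25, adjusted p = 0.47). ZCCHC6 was at 62.8 ± 10.002, 22.6 ± 2.92 and 33.2 ± 4.95 in these lines. LIN28A was at 0.114 ± 0.228 CPM in WT DU145, 70.3 ± 4.63 in its LIN28A-OE form, 370.1 ± 37.5 and 241 ± 40.6 in the LIN28A-OE cKO lines, and 239 ± 35.8 in WT IGROV1, so the LIN28A-OE cKO lines carried more LIN28A mRNA than the LIN28A-OE WT line. The lines held epithelial keratins, but the prostate markers KLK3 and HOXB13 were at or near 0 in DU145, and among the Mullerian markers IGROV1 held PAX8 (674 ± 52.6 CPM in WT) while WT1 was near 0, and MUC16 and MSLN were low (2.23 ± 0.806 and 0.566 ± 0.194 CPM) and higher in WT DU145 (22.96 ± 9.2004 and 33.1 ± 5.798 CPM). T cell (CD3E) and muscle (MYH7) markers were at or near 0 in all groups. A set of 6 libraries stood apart from their own groups in overall profile or in a trend of expression with transcript length: replicate 1 of WT DU145 and of LIN28A-OE WT DU145, and replicate 4 of both cKO lines of DU145 and of IGROV1. Their root mean square deviation from the group was 0.273 to 0.581 on the log2 scale, beside 0.0965 to 0.285 for the others.

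Glycolysis converts glucose to pyruvate in the cytosol, with ATP and NADH as products, and in many tumour cells most of the pyruvate is reduced to lactate even when oxygen is present. Hexokinase, phosphofructokinase and pyruvate kinase catalyse its practically irreversible steps, and each step is served by isoenzymes encoded by separate genes. Many of these genes are known targets of the hypoxia-inducible factor HIF-1 and of MYC, and LIN28 proteins and let-7 are known for effects on glucose metabolism in other systems.

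Promoter sequence was at hand in RefSeq (GRCh38.p14, from 250 bases before to 50 bases after the start of transcription) for 31 of the 34 genes. The core ACGTG of the hypoxia response element, searched on both strands, occurred in 11 of the 31 (35.5%), beside 5900 of all 27305 promoters of the same length (21.6%). The E-box CACGTG, which contains that core and is the site that MYC and USF factors bind, occurred in 4 of 31 (12.9%) and in 2030 of 27305 (7.43%). The members' promoters were also richer in G and C (65.7%, beside 57.2% in all promoters), which bears on how often such letters occur. LDHA held 5 matches, ALDOC, PGK1 and PDHB 3 each, HK2 and GAPDH 2 each, and GPI, ALDOA, ENO2, PDK3 and TIGAR 1 each. A CACGTG matches on both strands, so it counts as 2 matches here but is 1 stretch of sequence. LDHA held 2 such stretches, and ALDOC, GAPDH and PDHB 1 each, so these genes hold fewer separate sites than matches. Of the 4 genes shown here, ENO2, HK2 and LDHA held matches and SLC16A3 held none. A match is a run of letters, not a bound site, and a window without one says nothing about the factor. They are shown because ENO2 and SLC16A3 fell most in the IGROV1 knockouts, HK2 fell most in the DU145 knockouts and LDHA differed between the DU145 clones. They lie on the plus strand at chr12:6914330-6914629 (ENO2), chr17:82228185-82228484 (SLC16A3), chr2:74833877-74834176 (HK2) and chr11:18394313-18394612 (LDHA). Capitals mark ACGTG or its reverse complement.
ENO2: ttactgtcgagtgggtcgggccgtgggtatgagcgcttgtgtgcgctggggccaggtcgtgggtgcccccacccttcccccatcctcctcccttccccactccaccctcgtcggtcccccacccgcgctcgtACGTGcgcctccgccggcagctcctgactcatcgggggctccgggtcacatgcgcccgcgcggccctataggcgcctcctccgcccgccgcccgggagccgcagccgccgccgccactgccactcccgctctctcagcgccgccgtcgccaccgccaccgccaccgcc
SLC16A3: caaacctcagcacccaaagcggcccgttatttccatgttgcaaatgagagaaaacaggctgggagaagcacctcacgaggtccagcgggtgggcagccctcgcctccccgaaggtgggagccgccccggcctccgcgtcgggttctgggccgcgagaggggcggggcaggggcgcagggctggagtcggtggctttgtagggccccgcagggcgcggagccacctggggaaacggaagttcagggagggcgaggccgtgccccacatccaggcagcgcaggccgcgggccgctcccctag
HK2: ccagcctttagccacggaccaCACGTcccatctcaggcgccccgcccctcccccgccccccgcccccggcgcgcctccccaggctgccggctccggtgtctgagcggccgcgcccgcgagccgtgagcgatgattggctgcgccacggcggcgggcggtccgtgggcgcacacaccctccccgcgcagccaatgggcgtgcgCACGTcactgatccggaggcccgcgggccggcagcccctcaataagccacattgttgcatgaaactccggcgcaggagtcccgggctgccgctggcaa
LDHA: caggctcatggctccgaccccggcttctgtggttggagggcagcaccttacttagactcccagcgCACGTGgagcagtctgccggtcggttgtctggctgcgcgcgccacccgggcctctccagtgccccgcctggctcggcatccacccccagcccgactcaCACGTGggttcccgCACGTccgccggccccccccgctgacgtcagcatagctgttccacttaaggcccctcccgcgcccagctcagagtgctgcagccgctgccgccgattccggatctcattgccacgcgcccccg

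To compare genes with each other, CPM were divided by the length of the MANE Select transcript in kilobases. In WT DU145 the order began with GAPDH at 3425 CPM per kb, ENO1 at 2496, PKM at 2027 and ALDOA at 1849. LDHB (604) and LDHA (568) followed, then TPI1 (382), and the order ended with SLC2A12 at 0.43 and SLC2A3 at 0.247. In WT IGROV1 the order again began with GAPDH (3925 CPM per kb), ENO1 (1675) and PKM (1228), then LDHB (1167) and ALDOA (1038), and it ended with SLC2A3 (0.307), PDK4 (0.301) and FBP1 (0.0596). Reads that mapped to several places were not counted, so the levels of GAPDH, PGK1, PGAM1, ENO1, LDHA, ALDOA, TPI1 and PKM, which have near-identical processed pseudogenes, and of SLC2A3, whose paralog SLC2A14 is close in sequence, are uncertain.

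WT DU145 and WT IGROV1 differed in 22 of the 34 genes. Levels were higher in DU145 for 10 of them (PFKP, PFKFB2, PFKFB3, ALDOA, PGAM1, ENO1, PKM, PDK2, SLC16A3 and FBP1) and lower for 12 (SLC2A12, HK2, PFKM, PFKFB4, ALDOC, TPI1, PGK1, ENO2, LDHB, PDHA1, PDHB and SLC16A1). In all tested genes 31.3% were called higher and 28.7% lower in DU145, so calls at such rates were common between these lines. For none of the 22 did the 4 DU145 libraries overlap the 4 IGROV1 libraries, as was so for 96.9% of all called genes. FBP1, which runs the phosphofructokinase step backwards, differed most. Its levels were 15.5, 15.1, 13.4 and 16.1 CPM in the DU145 libraries and 0.109, 0.062, 0.0702 and 0.11 CPM in the IGROV1 libraries (log2 fold change 7.25, SE 0.30, adjusted p = 1.6e-20). All 4 DU145 libraries were above all 4 IGROV1 libraries, which hold 6 FBP1 counts in all. ALDOC, the aldolase best known from brain, was at 2.002, 1.23, 1.002 and 2.104 CPM in DU145 and 95.8, 72.9, 85.9 and 82.2 CPM in IGROV1 (log2 fold change -5.75, SE 0.32, adjusted p = 2.7e-17). SLC2A12, a glucose transporter also called GLUT12, was at 1.58, 2.04, 3.28 and 2.69 CPM and 66.4, 98.7, 91.2 and 84.4 CPM (log2 fold change -5.14, SE 0.27, adjusted p = 1e-17). PFKP, the platelet-type phosphofructokinase, was at 591, 462, 478 and 495 CPM in DU145 and 173, 143, 161 and 163 CPM in IGROV1 (log2 fold change 1.66, SE 0.16, adjusted p = 7.3e-11). ALDOC and SLC2A12 were low in every DU145 library, and PFKP was high in each. PFKFB4, which makes and removes fructose 2,6-bisphosphate, was at 21.7, 11.96, 8.47 and 12.6 CPM in DU145 and 44.2, 39.6, 44.3 and 38.01 CPM in IGROV1 (log2 fold change -1.60, SE 0.18, adjusted p = 1.7e-09). PDHB, the beta subunit of the first component of pyruvate dehydrogenase, was at 83.96, 59.1, 61.5 and 64.1 CPM and 197, 188, 186 and 198 CPM (log2 fold change -1.52, SE 0.09, adjusted p = 7.3e-16). Line, tissue, medium and passage number cannot be told apart in this comparison.

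**Figure D1:**
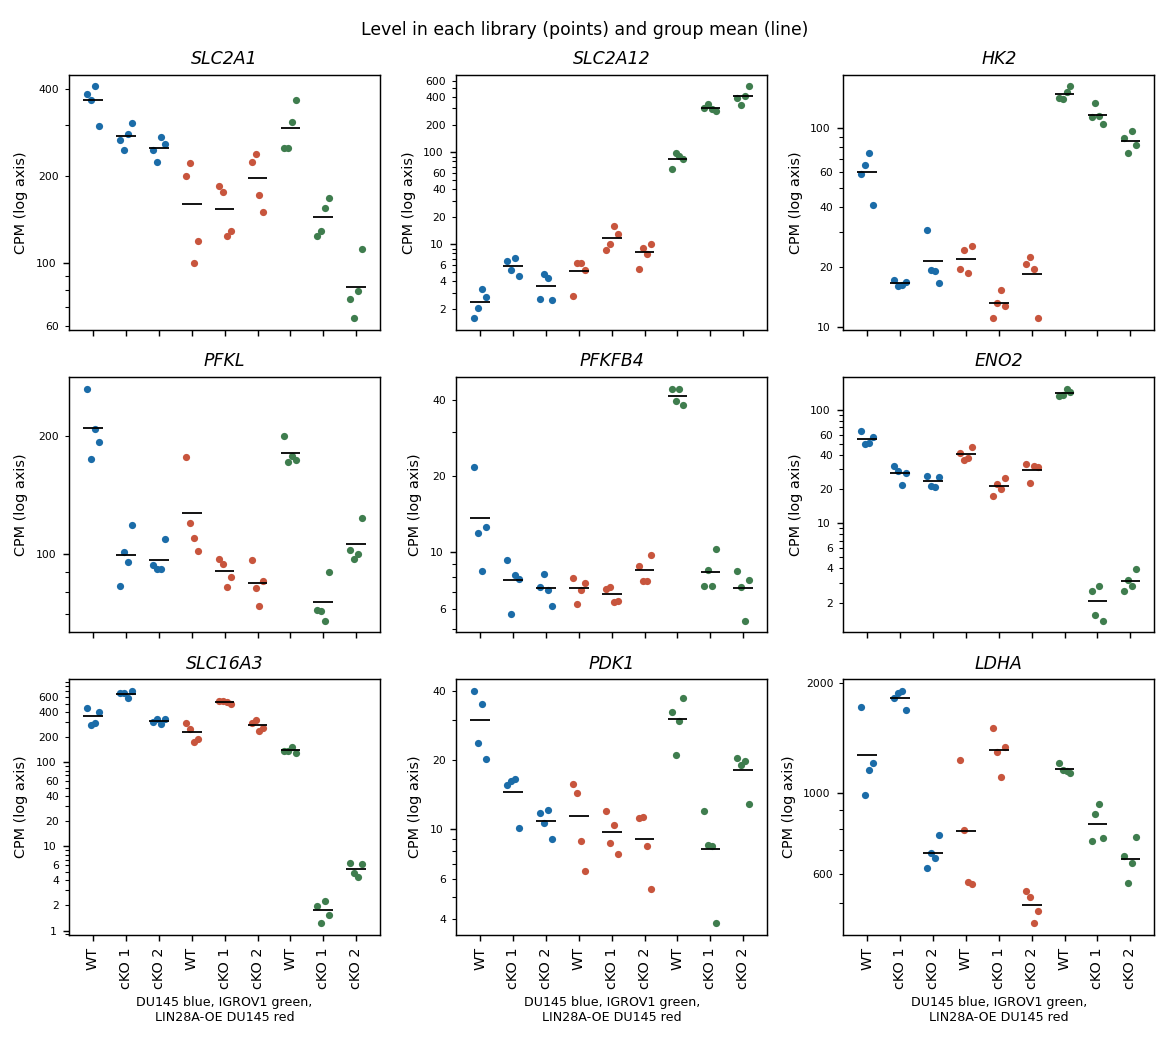
CPM (log axis) of 9 genes in each of the 36 libraries by group, with points for libraries, lines for group means and colours for DU145, LIN28A-OE DU145 and IGROV1. SLC16A3 and ENO2 sit far lower in both IGROV1 cKO lines than in IGROV1 WT, and HK2 sits lower in both DU145 cKO lines than in DU145 WT.

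The cKO lines of IGROV1 held less mRNA of most of these genes than WT IGROV1. Genotype and passage number can hardly be told apart in this comparison, and what is called the genotype effect in IGROV1 below carries both. With both clones pooled (8 libraries against 4), 19 of the 34 genes fell and 6 rose, and the median log2 fold change over the 34 was -0.50, beside 0 over all genes tested. In all tested genes 18.1% fell and 15.1% rose. The genes that fell included transporters (SLC2A1 and SLC2A3), HK2, both PFKL and PFKP, 3 of the PFKFB genes (PFKFB2, PFKFB3 and PFKFB4), enzymes of the lower pathway (ALDOC, TPI1, GAPDH, ENO1, ENO2, PKM, LDHA and LDHB), PDK1 and both lactate exporters. The genes that rose were SLC2A12, PFKM, PDK4, PDHA1, PDHB and FBP1. Libraries of the groups did not overlap for 20 of these 25 genes (80%), beside 66.4% of all genes called in this comparison. They overlapped for TPI1, GAPDH, ENO1, PKM and PDK4.

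ENO2, the neuronal enolase gene (chr12:6913745-6923698 in hg38, plus strand), fell most. Its levels were 133, 133, 154 and 143 CPM in the WT libraries, 2.52, 1.56, 2.796 and 1.39 in cKO 1 and 2.51, 3.14, 2.802 and 3.94 in cKO 2, a 55.3-fold fall (log2 fold change -5.79, SE 0.14, adjusted p = 3.2e-26). SLC16A3, which encodes the lactate exporter MCT4 (chr17:82217934-82261129, plus strand), was at 137, 135, 153 and 129 CPM in WT, 1.96, 1.23, 2.24 and 1.54 in cKO 1 and 6.31, 4.85, 4.36 and 6.202 in cKO 2 (45.2-fold, log2 fold change -5.50, SE 0.14, adjusted p = 1.4e-25). For both genes every cKO library lay far below every WT library, and cKO 1 lay below cKO 2 for SLC16A3. PFKFB4 was at 44.2, 39.6, 44.3 and 38.01 CPM in WT, 7.36, 8.49, 7.38 and 10.3 in cKO 1 and 8.42, 7.32, 5.37 and 7.81 in cKO 2 (log2 fold change -2.42, SE 0.15, adjusted p = 1.8e-15), again with all 8 cKO libraries below the 4 of WT. SLC2A3, the high-affinity neuronal glucose transporter GLUT3, was near the floor of detection. It was at 0.599, 0.929, 1.68 and 1.49 CPM in WT, 0.0613, 0, 0.224 and 0 in cKO 1 and 0.308, 0.119, 0.156 and 0.219 in cKO 2 (log2 fold change -3.28, SE 0.59, adjusted p = 2.5e-05), and no cKO library reached a WT library. In counts, cKO 1 held 3 SLC2A3 reads and WT 77, a depth-adjusted ratio of 0.0525 (exact 95% interval 0.0106 to 0.159, counting error only), and cKO 2 held 14, a ratio of 0.171 (0.0893 to 0.305).

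Among the genes that rose in the IGROV1 cKO lines, SLC2A12 was at 66.4, 98.7, 91.2 and 84.4 CPM in WT, 299.7, 333, 293 and 279 in cKO 1 and 392, 327, 406 and 523 in cKO 2 (log2 fold change 2.05, SE 0.20, adjusted p = 1.5e-10). Every cKO library was above every WT library. FBP1 was at 0.109, 0.062, 0.0702 and 0.11 CPM in WT, 0.245, 0.112, 0.336 and 0.616 in cKO 1 and 0.411, 0.199, 0.778 and 0.365 in cKO 2 (log2 fold change 1.78, SE 0.44, adjusted p = 0.0033), so these levels rest on few reads. It had 6 counts in WT, 13 in cKO 1 (ratio 2.92, 1.04 to 9.37) and 28 in cKO 2 (4.39, 1.78 to 12.97), and its call was lost without any of 4 libraries, WT replicates 2 and 3, cKO 1 replicate 4 and cKO 2 replicate 3 (adjusted p 0.011 to 0.014), or without the 6 libraries that stood apart (0.0102). The FBP1 call was also lost with DESeq2. PFKM, the muscle-type phosphofructokinase, rose from 224 ± 16.1 CPM in WT to 318 ± 41.4 and 344 ± 52.005 (log2 fold change 0.56, SE 0.10, adjusted p = 3.1e-05). PDHA1 and PDHB, the subunits of the enzyme that turns pyruvate into acetyl-CoA, changed by log2 0.54 and 0.30, and the kinase PDK4, which inhibits that enzyme, changed by 1.13.

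The other falls in IGROV1 were smaller. SLC2A1 (GLUT1, the main basal glucose transporter) was at 293 ± 54.9 CPM in WT, 144 ± 21.3 in cKO 1 and 82.3 ± 20.2 in cKO 2 (log2 fold change -1.43, SE 0.17). HK2, the inducible hexokinase bound to mitochondria, fell by 0.57 on the log2 scale, ALDOC by 0.95, SLC16A1 (MCT1) by 1.31, PFKP by 0.96, PFKL (the liver-type phosphofructokinase) by 1.03, PDK1 (an inhibitory kinase of pyruvate dehydrogenase) by 1.29, PFKFB2 by 0.82 and PFKFB3 by 0.52. The abundant enzymes of the lower pathway fell too. LDHA, which makes lactate, fell by 0.66 on the log2 scale, LDHB, which favours the reverse reaction, by 0.44, ENO1 by 0.59, PKM by 0.53, GAPDH by 0.50 and TPI1 by 0.51. Without the 6 libraries that stood apart HK1, ALDOA and PGK1 were called lower as well. The 9 genes without a call in the fit of all libraries were HK1 (log2 fold change -0.12), GPI (-0.09), ALDOA (-0.24), PGK1 (-0.46), PGAM1 (0.04), ENO3 (-0.05), PDK2 (0.42), PDK3 (0.22) and TIGAR (-0.21), the phosphatase that lowers fructose 2,6-bisphosphate.

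When each IGROV1 clone was set against WT alone, 10 genes fell in both clones (SLC2A1, SLC2A3, PFKL, PFKP, PFKFB2, PFKFB4, ALDOC, ENO2, SLC16A1 and SLC16A3) and 3 rose in both (SLC2A12, PFKM and PDHA1). In all tested genes 9.94% fell and 7.53% rose in both clones. Both comparisons use the same 4 WT libraries. Of the 25 calls on the pooled clones, 17 held without each library in turn and in every other alternative run. TPI1 lost its call without any of 10 libraries. Epithelial markers moved with these results. Of 6 markers, 5 fell in the IGROV1 cKO lines: EPCAM from 81.5 ± 6.56 CPM to 0.262 ± 0.206 and 0.133 ± 0.0936, KRT8 from 205 ± 31.2 to 3.09 ± 2.403 and 1.61 ± 0.71, and CDH1, KRT18 and KRT19 with log2 fold changes of -3.66, -1.18 and -0.67. CLDN7 changed by 0.43 and was not called. The summed level of the 6 was 1191 to 1332 CPM in WT, 794 to 1474 in cKO 1 and 361 to 415 in cKO 2, and none was at 0 in every library of a group. Neuronal markers, followed because neurons express ENO2 and ALDOC, summed to 7.998 to 9.91 CPM in WT, 3.54 to 5.14 in cKO 1 and 5.47 to 6.53 in cKO 2 over RBFOX3, SYP and SNAP25, with SYP called higher and SNAP25 lower. Endothelial markers (PECAM1, CDH5 and VWF) summed to 71.4 to 115 CPM, 15.8 to 37.1 and 52.4 to 107, and 2 of the 3 fell. Among the Mullerian markers MUC16 (-3.80) and MSLN (-3.65) fell and PAX8 (0.05) was not called. The part of these shifts in the results was not tested, and in bulk RNA fewer cells of a type and less RNA per cell cannot be told apart.

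**Figure D2:**
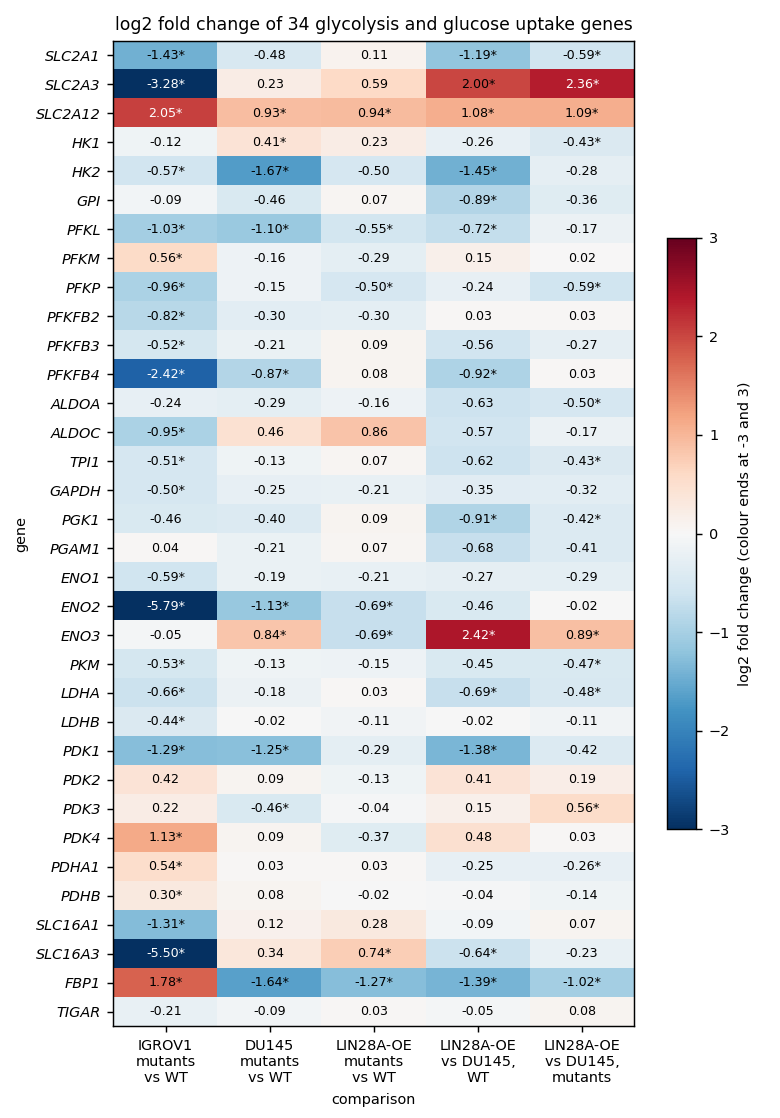
Log2 fold change of each of the 34 genes (rows) in 5 comparisons (columns), with colours ending at -3 and 3 and a star where the adjusted p was below 0.01. The IGROV1 column holds 25 stars, 19 of them on falls, and the DU145 column 10.

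In DU145, which has almost no LIN28A, 10 of the 34 genes differed between the cKO lines and WT. Genotype and passage number cannot be told apart in this comparison, and what is called the genotype effect in DU145 below carries both. In the pooled clones 7 fell (HK2, PFKL, PFKFB4, ENO2, PDK1, PDK3 and FBP1) and 3 rose (SLC2A12, HK1 and ENO3). In all tested genes 10.2% fell and 7.84% rose, and the median log2 fold change was -0.17 over the 34 genes and -0.00 over all. HK2 (chr2:74834127-74893359, plus strand) fell most. It was at 58.9, 65.3, 74.7 and 41.1 CPM in the WT libraries, 17.3, 16.1, 16.2 and 16.9 in cKO 1 and 30.9, 19.4, 19.1 and 16.7 in cKO 2, a 3.18-fold fall (log2 fold change -1.67, SE 0.15, adjusted p = 2e-10). FBP1 was at 15.5, 15.1, 13.4 and 16.1 CPM in WT, 3.33, 3.94, 4.38 and 4.29 in cKO 1 and 6.25, 5.79, 6.496 and 4.77 in cKO 2 (log2 fold change -1.64, SE 0.16, adjusted p = 7.8e-10). For both genes all 8 cKO libraries were below all 4 WT libraries.

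PDK1 was at 40.1, 23.8, 35.3 and 20.1 CPM in WT DU145, 15.5, 16.1, 16.5 and 10.02 in cKO 1 and 11.7, 10.6, 12.03 and 8.99 in cKO 2 (log2 fold change -1.25, SE 0.23, adjusted p = 7.3e-05). ENO2 was at 64.3, 50.2, 50.8 and 56.9 CPM in WT, 31.8, 28.8, 21.6 and 27.9 in cKO 1 and 25.9, 21.3, 20.7 and 25.5 in cKO 2 (log2 fold change -1.13, SE 0.13, adjusted p = 2.6e-08). PFKL was at 265, 175, 209 and 193 CPM in WT, 82.6, 101, 95.4 and 119 in cKO 1 and 93.7, 91.3, 91.8 and 109 in cKO 2 (log2 fold change -1.10, SE 0.12, adjusted p = 1.2e-08). None of these 3 genes had a cKO library that reached the lowest WT library. SLC2A12 rose without such a gap. It was at 1.58, 2.04, 3.28 and 2.69 CPM in WT, 6.57, 5.28, 7.19 and 4.58 in cKO 1 and 2.54, 4.79, 4.36 and 2.48 in cKO 2 (log2 fold change 0.93, SE 0.26, adjusted p = 0.0074), with overlapping groups, and its call was lost without any of 7 libraries (WT replicates 1, 2 and 4, cKO 1 replicates 1 and 3 and cKO 2 replicates 2 and 3, adjusted p 0.01 to 0.039), or without the 6 libraries that stood apart (0.0106), when GPI, PDHB and SLC16A3 gained a call. Groups overlapped too for PFKFB4 (log2 fold change -0.87), PDK3 (-0.46), HK1 (0.41) and ENO3 (0.84, the muscle enolase), so that 5 of the 10 called genes (50%) had no overlap, beside 45.5% of all called genes.

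When the DU145 clones were taken separately, 6 genes fell in both (HK2, PFKL, PFKFB4, ENO2, PDK1 and FBP1) and 0 rose in both by edgeR's test, beside 2.96% and 2.24% of all tested genes. At an unadjusted p under 0.05, and with DESeq2, again 0 of the 34 were higher in both clones. SLC2A12 differed by log2 1.30 in cKO 1 (adjusted p = 0.00063) and 0.55 in cKO 2 (adjusted p = 0.17). Of the 10 calls in pooled clones, those of these 6 genes held without each library in turn and in every other alternative, and with the trend of expression with length as a term in the fit 16 genes fell and 4 rose. SLC2A1, SLC2A3, LDHA, LDHB and SLC16A1, whose differences were called in IGROV1, were not called in DU145 (log2 fold changes -0.48, 0.23, -0.18, -0.02 and 0.12). Of the 6 epithelial markers 2 were called lower in the cKO lines, and their summed level was 1448 to 2620 CPM in WT, 1753 to 2431 in cKO 1 and 2431 to 3399 in cKO 2, while MUC16 (-1.34) and MSLN (-0.67) fell and PAX8 (1.15) and PECAM1 (3.74) rose. The part of these shifts in the results was not tested.

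The genotype effects in the 2 lines share no library, but in each line the effect carries passage number too. Of the 7 genes that fell in DU145 and the 19 that fell in IGROV1, 5 were common to both (HK2, PFKL, PFKFB4, ENO2 and PDK1), and SLC2A12 rose in both. Over all tested genes 440 fell in both lines, which is 15.6% of those that fell in IGROV1 and 27.7% of those that fell in DU145, and 271 rose in both (11.5% and 22.2%). FBP1 fell in DU145 and was called higher in IGROV1, where it rests on few reads and the call was lost with DESeq2. Tested directly, the genotype effect on the log2 scale was more positive in IGROV1 for 6 genes (SLC2A12, HK2, PFKM, PDK3, PDHA1 and FBP1) and more negative for 10 (SLC2A1, SLC2A3, HK1, PFKP, PFKFB2, PFKFB4, ALDOC, ENO2, SLC16A1 and SLC16A3), beside 11.3% and 12.8% of all tested genes. The difference was -5.84 (SE and adjusted p 0.21 and 2.9e-21) for SLC16A3, -4.66 (0.20 and 4.3e-19) for ENO2 and 3.42 (0.45 and 2.6e-07) for FBP1, all as log2. ENO2 fell in both lines, by 55.3-fold in IGROV1 and 2.19-fold in DU145. HK2 fell by 1.49-fold in IGROV1 and 3.18-fold in DU145, a log2 difference of 1.09 (0.21 and 0.00013). For PFKL the difference between the lines was 0.08 with a 95% interval of -0.26 to 0.42, and for PDK1 -0.04 (-0.68 to 0.60), neither of them called. Of the 16 calls, 10 held without each library in turn and in every other alternative (SLC2A3, HK2, PFKM, PFKP, PFKFB4, ENO2, PDK3, SLC16A1, SLC16A3 and FBP1).

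In the LIN28A-OE DU145 lines, 5 of the 34 genes fell in the pooled cKO clones (PFKL, PFKP, ENO2, ENO3 and FBP1) and 2 rose (SLC2A12 and SLC16A3). In all tested genes 10.6% fell and 7.35% rose, and the median over the 34 genes was -0.03. FBP1 was at 5.34, 4.69, 5.92 and 7.13 CPM in LIN28A-OE WT, 2.298, 1.93, 1.93 and 2.47 in cKO 1 and 2.95, 2.01, 2.94 and 2.49 in cKO 2 (log2 fold change -1.27, SE 0.17, adjusted p = 3.3e-07). ENO2 was at 41.3, 36.03, 37.8 and 46.5 CPM in LIN28A-OE WT, 17.3, 22.3, 19.9 and 24.998 in cKO 1 and 33.5, 22.5, 31.6 and 30.96 in cKO 2 (log2 fold change -0.69, SE 0.13, adjusted p = 8e-05). In both, every cKO library was below every WT library. PFKL was at 178, 120.1, 109.9 and 102 CPM in WT, 97.2, 94.4, 82.2 and 87.2 in cKO 1 and 96.3, 81.98, 73.4 and 85.2 in cKO 2 (log2 fold change -0.55, SE 0.12, adjusted p = 0.00073), also without overlap, but its call was lost without WT replicate 1 (log2 fold change -0.34, adjusted p = 0.02).

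SLC2A12 was at 2.73, 6.32, 6.29 and 5.22 CPM in LIN28A-OE WT, 8.78, 10.1, 15.8 and 12.9 in cKO 1 and 5.47, 9.24, 7.78 and 10.2 in cKO 2 (log2 fold change 0.94, SE 0.21, adjusted p = 0.00094). SLC16A3 was at 296, 252, 177 and 187 CPM in WT, 543, 538, 518 and 498 in cKO 1 and 296, 318, 239 and 259 in cKO 2 (log2 fold change 0.74, SE 0.13, adjusted p = 4.8e-05). In both cases the cKO libraries overlapped those of WT, and for SLC16A3 cKO 1 was high and cKO 2 lay near WT. ENO3 was at 7.84, 19.9, 23.9 and 27.5 CPM in WT, 5.72, 3.78, 5.86 and 4.43 in cKO 1 and 27.9, 28.6, 29.1 and 35.01 in cKO 2 (log2 fold change -0.69, SE 0.18, adjusted p = 0.005), with every cKO 1 library below and every cKO 2 library above the WT libraries, and it lost its call without any of 5 libraries (WT replicates 2, 3 and 4 and cKO 1 replicates 2 and 4, adjusted p 0.011 to 0.062). In clones taken separately, 2 genes fell in both (PFKL and FBP1) and 0 rose in both by edgeR's test, beside 3.39% and 2.02% of all tested genes. At an unadjusted p under 0.05 SLC2A12 and ALDOC, 2 genes, were higher in both, and with DESeq2 0. HK2, the gene that fell most in DU145 without LIN28A, was at 19.6, 24.2, 18.6 and 25.6 CPM in LIN28A-OE WT, 11.1, 13.2, 15.4 and 12.8 in cKO 1 and 20.6, 22.5, 19.5 and 11.1 in cKO 2 (log2 fold change -0.50, SE 0.15, adjusted p = 0.015), a difference that was not called here but was with DESeq2 (adjusted p = 0.00899) and with the length slope as a term (0.00953). Of the 7 calls, ENO2, SLC16A3 and FBP1 held in every alternative. Without the 6 libraries that stood apart 14 genes were called, 9 higher and 5 lower, and with library totals as the only scaling 3 were higher and 4 lower. MUC16 (-1.44) and MSLN (-0.49) fell and PAX8 (1.28) rose here too, and the part of this in the results was not tested.

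The effect of the genotype in LIN28A-OE DU145 minus that in DU145 was tested as an interaction. WT and cKO lines had the same passage numbers in LIN28A-OE DU145 but not in DU145. LIN28A mRNA was at 70.3 CPM in LIN28A-OE WT and 370.1 and 241 in the LIN28A-OE cKO lines. The presence of LIN28A thus cannot be told apart here from its level or from passage number. The interaction was called for 1 gene upwards, HK2 (log2 1.17, 95% interval 0.74 to 1.60, adjusted p = 0.0034), and for 1 downwards, ENO3 (-1.53, -2.11 to -0.95, adjusted p = 0.0045), beside 0.18% and 0.309% of all tested genes. The HK2 fall of 1.67 in DU145 thus stood beside a log2 fold change of -0.50 in LIN28A-OE DU145, called with DESeq2 and not with edgeR. For ENO3 the pooled clones rose by 0.84 in DU145 and fell by 0.69 in LIN28A-OE DU145, but the clones differed in both backgrounds. Its mean level was 2.52 CPM per kb in WT DU145, 2.42 in cKO 1 and 8.51 in cKO 2. In the LIN28A-OE lines it was 13.6 in WT, 3.40 in cKO 1 and 20.7 in cKO 2. Neither call held in every alternative, and without the 6 libraries that stood apart 5 genes were called, 4 upwards and 1 downwards. HK2 lost its call without LIN28A-OE WT replicate 3 (adjusted p = 0.016) or without WT replicate 3 (0.015), and ENO3 without any of 5 libraries (LIN28A-OE WT replicates 2, 3 and 4 and WT replicates 1 and 3, 0.01 to 0.02). For ENO2 the interaction was 0.44 (95% interval 0.08 to 0.80), for PFKL 0.56 (0.22 to 0.90) and for PDK1 0.96 (0.31 to 1.61).

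LIN28A-OE WT DU145 was next compared with WT DU145. In the LIN28A-OE line 10 of the 34 genes were lower (SLC2A1, HK2, GPI, PFKL, PFKFB4, PGK1, LDHA, PDK1, SLC16A3 and FBP1) and 3 higher (SLC2A3, SLC2A12 and ENO3). In all tested genes 2.55% were lower and 6.67% higher, and the median log2 fold change was -0.40 over the 34 genes and 0.04 over all. ENO3 differed most, from 3.37, 4.81, 3.098 and 3.39 CPM in WT to 7.84, 19.9, 23.9 and 27.5 CPM in LIN28A-OE WT (log2 fold change 2.42, SE 0.25, adjusted p = 2.3e-08). SLC2A3 went from 0.421, 1.23, 1.55 and 0.584 CPM to 1.95, 6.496, 4.15 and 2.91 CPM (log2 fold change 1.999, SE 0.47, adjusted p = 0.0026). The libraries of the groups did not overlap for either gene, though SLC2A3 was near the floor in WT and lost its call without any of 3 libraries (LIN28A-OE WT replicate 2 and WT replicates 1 and 4, adjusted p 0.013 to 0.024).

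HK2 was at 58.9, 65.3, 74.7 and 41.1 CPM in WT and 19.6, 24.2, 18.6 and 25.6 CPM in LIN28A-OE WT (log2 fold change -1.45, SE 0.18, adjusted p = 7.9e-07). FBP1 was at 15.5, 15.1, 13.4 and 16.1 CPM and 5.34, 4.69, 5.92 and 7.13 CPM (log2 fold change -1.39, SE 0.18, adjusted p = 2.1e-06). PDK1 was at 40.1, 23.8, 35.3 and 20.1 CPM in WT and 15.6, 14.4, 8.81 and 6.53 CPM in LIN28A-OE WT (log2 fold change -1.38, SE 0.27, adjusted p = 0.00045). All 4 LIN28A-OE libraries were the lower ones for these 3 genes. SLC2A1 was at 385, 367, 409 and 298 CPM in WT and 199.6, 222, 99.3 and 119 CPM in LIN28A-OE WT (log2 fold change -1.19, SE 0.20, adjusted p = 7.9e-05), also without overlap. Groups overlapped for PFKL, PGK1, LDHA, SLC16A3 and SLC2A12, leaving 8 of 13 (61.5%) without overlap, beside 72.2% of all called genes. When only these 8 libraries were fitted, 3 of the 13 calls held (HK2, ENO3 and FBP1), and SLC2A1 and PDK1 then had adjusted p of 0.022 and 0.029 with log2 fold changes of -1.22 and -1.42. Markers differed as well: KRT19 (-0.77) and CLDN7 (-1.12) were lower and MUC16 (1.50) and PECAM1 (3.11) higher, with the 6 epithelial markers summing to 1448 to 2620 CPM in WT and 1466 to 2604 CPM in LIN28A-OE WT. Their part in the results was not tested.

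In the mutants, LIN28A-OE cKO DU145 (8 libraries) was compared with cKO DU145 (8 libraries). SLC2A3, SLC2A12, ENO3 and PDK3 were higher, and SLC2A1, HK1, PFKP, ALDOA, TPI1, PGK1, PKM, LDHA, PDHA1 and FBP1 were lower. These 4 and 10 genes stand beside 13.9% higher and 9.76% lower in all tested genes, with a median log2 fold change of -0.24 over the 34 genes and 0.07 over all. Of these 14, PFKP and FBP1 had groups that did not overlap (14.3%), beside 11.1% of all called genes. SLC2A3 was at 0.989, 1.25, 1.05 and 0.286 CPM in cKO 1, 1.86, 2.12, 1.11 and 0.551 in cKO 2, 1.94, 1.499, 3.87 and 5.86 in LIN28A-OE cKO 1 and 9.38, 13.95, 11.1 and 7.28 in LIN28A-OE cKO 2 (log2 fold change 2.36, SE 0.31, adjusted p = 1.3e-06), so that the high values were those of LIN28A-OE cKO 2. SLC2A12 was at 6.57, 5.28, 7.19 and 4.58 CPM in cKO 1, 2.54, 4.79, 4.36 and 2.48 in cKO 2, 8.78, 10.1, 15.8 and 12.9 in LIN28A-OE cKO 1 and 5.47, 9.24, 7.78 and 10.2 in LIN28A-OE cKO 2 (log2 fold change 1.09, SE 0.18, adjusted p = 1.9e-05). FBP1 was at 3.33, 3.94, 4.38 and 4.29 CPM in cKO 1, 6.25, 5.79, 6.496 and 4.77 in cKO 2, 2.298, 1.93, 1.93 and 2.47 in LIN28A-OE cKO 1 and 2.95, 2.01, 2.94 and 2.49 in LIN28A-OE cKO 2 (log2 fold change -1.02, SE 0.14, adjusted p = 3.7e-06), with every LIN28A-OE library below every library without it.

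ENO3 was at 3.33, 3.94, 3.07 and 3.72 CPM in cKO 1, 11.2, 14.03, 11.4 and 12.8 in cKO 2, 5.72, 3.78, 5.86 and 4.43 in LIN28A-OE cKO 1 and 27.9, 28.6, 29.1 and 35.01 in LIN28A-OE cKO 2 (log2 fold change 0.89, SE 0.17, adjusted p = 0.00013), high in the second clone in both backgrounds. PFKP was at 394, 429, 392 and 534 CPM in cKO 1, 464, 400.3, 445 and 605 in cKO 2, 315, 315, 229 and 298 in LIN28A-OE cKO 1 and 363, 317, 308 and 287 in LIN28A-OE cKO 2 (log2 fold change -0.59, SE 0.11, adjusted p = 0.00016). SLC2A1 was at 267, 246, 279.6 and 305 CPM in cKO 1, 245, 222, 272 and 258 in cKO 2, 184, 176, 123 and 129 in LIN28A-OE cKO 1 and 223, 238, 172 and 149.6 in LIN28A-OE cKO 2 (log2 fold change -0.59, SE 0.14, adjusted p = 0.0015). For SLC2A1 the LIN28A-OE libraries were the lower ones on the whole, with overlap. In clones taken separately, SLC2A12 was called higher and FBP1 lower in both, beside 1.1% and 0.559% of all tested genes. These 2 shared calls depend on the setting: with library totals as the only scaling 1 was higher and 3 were lower in both, and 0 were left with only the groups of the comparison fitted, with the length slope as a term, or without any of 5 libraries (LIN28A-OE cKO 1 replicates 3 and 4 and cKO 1 replicates 2, 3 and 4). Of the 14 calls on pooled clones, 5 held in every alternative (SLC2A3, SLC2A12, PFKP, PDK3 and FBP1). KRT19 was lower (-0.99) and EPCAM (0.44), CDH1 (1.23), MUC16 (1.39) and MSLN (0.47) were higher with LIN28A, and the part of these markers in the results was not tested.

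SLC2A1, PGK1, LDHA and FBP1 were lower with LIN28A, and SLC2A3, SLC2A12 and ENO3 higher, both in WT and in mutant cells, comparisons that share no library. Over all tested genes 237 were lower in both, which is 59.8% of those lower in WT and 15.6% of those lower in mutants, and 660 were higher in both (63.6% and 30.6%). Libraries with LIN28A also differed in the trend of expression with transcript length. The mean slope, in log2 units per doubling of length over 9207 genes, was -0.000814 in WT, -0.0974 in cKO 1 and -0.0435 in cKO 2, and 0.0894, 0.0318 and 0.116 in their LIN28A-OE forms. The median transcript of the 34 genes is 2998.5 bases long, beside 3391 bases over 13174 tested genes. With the slope as a term in the fit, 15 of the 34 genes were called in WT (13 lower and 2 higher) and 7 in mutants (3 lower and 4 higher), and SLC2A1, ALDOA, TPI1, PGK1, ENO3, PKM, LDHA and PDHA1 lost their calls in mutants.

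The 2 clones of each line were compared with each other, since pooling the clones mixes a change that both share with a change of 1 clone. In IGROV1, 8 genes differed between clones, with 5 higher in cKO 2 (PFKL, ENO3, PDK1, PDHB and SLC16A3) and 3 lower (SLC2A1, GAPDH and TIGAR), beside 18.8% of all tested genes in either direction. SLC16A3 differed most (log2 cKO 2 against cKO 1 1.66, SE 0.21), at 1.74 CPM on average in cKO 1 and 5.43 CPM in cKO 2, both far below the 138 CPM of WT. PDK1 was at 11.96, 8.49, 8.39 and 3.85 CPM in cKO 1 and 20.5, 19.1, 19.9 and 12.8 CPM in cKO 2 (log2 fold change 1.10, SE 0.28, adjusted p = 0.0024). ENO3 was at 1.902, 1.396, 1.901 and 1.08 CPM in cKO 1 and 3.13, 3.86, 3.43 and 3.28 CPM in cKO 2 (log2 fold change 1.10, SE 0.28, adjusted p = 0.0029). Every cKO 2 library was above every cKO 1 library for both. SLC2A1 was at 123, 129, 155 and 168 CPM in cKO 1 and 74.7, 64.1, 79.4 and 111 in cKO 2 (log2 fold change -0.80, SE 0.20, adjusted p = 0.0024). TIGAR was at 52.6, 52.6, 50.9 and 32.01 CPM in cKO 1 and 29.8, 24.95, 29.6 and 25.03 CPM in cKO 2 (log2 fold change -0.79, SE 0.14, adjusted p = 2.8e-05). GAPDH was at 3642, 3699, 4422 and 5774 CPM in cKO 1 and 2626, 2504, 2827 and 3707 CPM in cKO 2 (log2 fold change -0.59, SE 0.16, adjusted p = 0.0053), and it was the only gene of the 8 whose clones overlapped. SLC16A3 alone kept its call in every alternative. The calls of SLC2A1 and PDK1 were lost without cKO 1 replicate 4 (adjusted p 0.015 and 0.011), SLC2A1 also without cKO 2 replicate 1 or 2 (0.011 and 0.016), and ENO3 without cKO 1 replicate 2 or cKO 2 replicate 2 (0.016 and 0.012).

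In DU145, 12 of the 34 genes differed between clones, 3 of them higher in cKO 2 (PFKM, PFKFB2 and ENO3) and 9 lower (HK1, ALDOA, PGK1, PKM, LDHA, PDK2, PDK3, PDHA1 and SLC16A3), beside 31.1% of all tested genes. In the LIN28A-OE forms of the same clones 12 differed as well, 4 higher in cKO 2 (SLC2A3, PFKFB2, ENO2 and ENO3) and 8 lower (GPI, ALDOA, PGK1, PKM, LDHA, PDK2, PDHA1 and SLC16A3), beside 37.7% of all tested genes. These comparisons share no library, but the LIN28A-OE lines were made from the DU145 clones. A set of 9 genes, which is 75% of each list, was called in both with the same sign (PFKFB2, ALDOA, PGK1, ENO3, PKM, LDHA, PDK2, PDHA1 and SLC16A3) and none with opposite signs. Over all genes tested, 3643 genes had calls of the same sign, 75.3% of those called in DU145 and 62.2% of those called in LIN28A-OE DU145, and 13 had calls of opposite sign.

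PDK2, an inhibitory kinase of pyruvate dehydrogenase, lay on opposite sides of WT in the 2 clones. It was at 27.5, 18.7, 21.6 and 27.8 CPM in WT DU145, 50.5, 48.7, 58.1 and 64.5 in cKO 1 (log2 against WT 1.21, SE 0.21) and 10.7, 11.5, 11.6 and 12.7 in cKO 2 (-1.04, SE 0.22). With LIN28A it was at 36.3, 28.6, 32.8 and 29.1 CPM in WT, 59.4, 51.8, 61.3 and 62.5 in cKO 1 (0.89, SE 0.20) and 14.3, 13.6, 13.7 and 15.6 in cKO 2 (-1.15, SE 0.21). Both directions were called in both backgrounds, and the pooled comparison of PDK2 was not called in any. Every cKO 1 library of PDK2 was above, and every cKO 2 library below, the WT libraries of its background. LDHA (chr11:18394560-18408425, plus strand) was at 1727, 992, 1158 and 1214 CPM in WT DU145, 1819, 1879.5, 1905 and 1694 in cKO 1 and 627, 685, 667 and 769.7 in cKO 2. With LIN28A it was at 1233, 796, 570.5 and 564 CPM in WT, 1509, 1295, 1104 and 1339 in cKO 1 and 542, 519, 442 and 476 in cKO 2. In both backgrounds every cKO 2 library was below every WT library, and the cKO 1 libraries lay above or within the range of WT. Its log2 difference from WT was 0.73, SE 0.17 in LIN28A-OE cKO 1 and -0.68, SE 0.17 in LIN28A-OE cKO 2, both called, and between clones -1.41, SE 0.17 in DU145 and -1.41, SE 0.17 with LIN28A. ENO3 differed between clones by log2 1.81, SE 0.25 in DU145 and 2.60, SE 0.23 with LIN28A, PGK1 by -1.08, SE 0.17 and -1.18, SE 0.17, and ALDOA by -0.90, SE 0.19 and -1.02, SE 0.19. SLC16A3 differed by -1.08, SE 0.15 and -0.91, SE 0.15, against the direction seen between the IGROV1 clones. SLC2A3 was at 1.94, 1.499, 3.87 and 5.86 CPM in LIN28A-OE cKO 1 and 9.38, 13.95, 11.1 and 7.28 in cKO 2 (log2 fold change 1.66, SE 0.36, adjusted p = 0.00031), with no overlap. Of the 12 calls in each background, 7 held in every alternative in DU145 and 10 with LIN28A. Scaling by library totals alone moves the median of all genes by 0.12 between the DU145 clones, and then 4 genes were higher and 6 lower in cKO 2. With the replicate number as a block, SLC2A12 (log2 fold change -0.78, adjusted p = 0.0082) and GPI (-0.54, 0.0063) were also called lower in DU145 cKO 2.

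**Figure D3:**
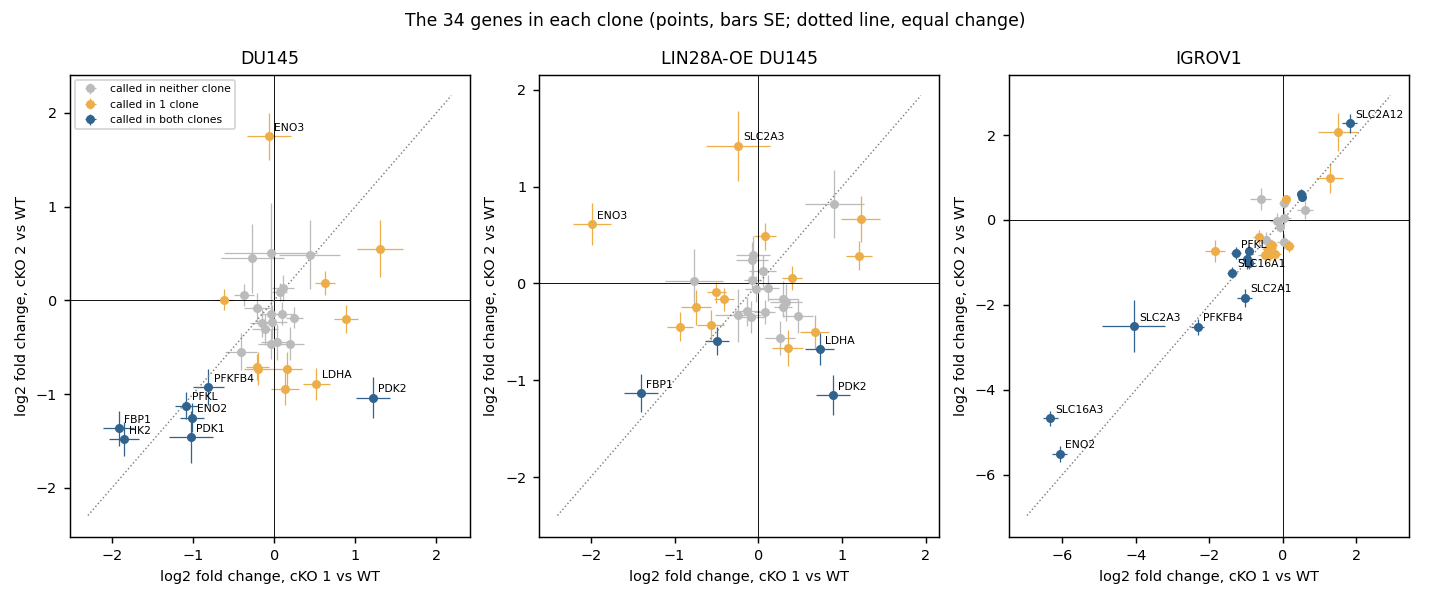
Log2 fold change against WT of each of the 34 genes in cKO 1 (x axis) and cKO 2 (y axis) in the 3 backgrounds, with bars for the SE, a dotted line for equal change and colours for genes called in neither, 1 or both clones. In IGROV1 ENO2 and SLC16A3 lie far below 0 in both clones, whereas in both DU145 backgrounds PDK2 lies right of 0 and below 0.

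The makeup of isoenzyme families was described next. As shares of the summed CPM per kb of a family, which set family members beside each other rather than against all genes, SLC2A12 made up 15.2% ± 2.99 of the 3 transporters in WT IGROV1, 56.1% ± 5.13 in cKO 1 and 75.3% ± 0.867 in cKO 2, with SLC2A1 making up most of the rest. PFKM made up 36.99% ± 0.446 of the phosphofructokinases in WT IGROV1, 64.03% ± 2.19 in cKO 1 and 62.4% ± 1.36 in cKO 2. The share of PFKFB4 among the PFKFB genes was 34.7% ± 2.74, 14.9% ± 1.67 and 11.5% ± 2.01, and that of SLC16A3 among the lactate exporters 39.6% ± 2.799, 2.17% ± 0.667 and 5.95% ± 2.03. In IGROV1 the shares of SLC2A12 and PFKM were thus higher and those of PFKFB4 and SLC16A3 lower in both clones than in WT, by more than the SD of each group. In DU145 the share of HK2 among the hexokinases was 16.9% ± 4.52 in WT, 3.49% ± 0.256 in cKO 1 and 5.997% ± 1.82 in cKO 2. LDHA made up 48.2% ± 2.55 of the lactate dehydrogenase mRNA in WT DU145, 55.8% ± 2.198 in cKO 1 and 35.9% ± 3.25 in cKO 2, with WT between the clones. Shares are given without a test, and a share can move because another member moved.

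**Figure D4:**
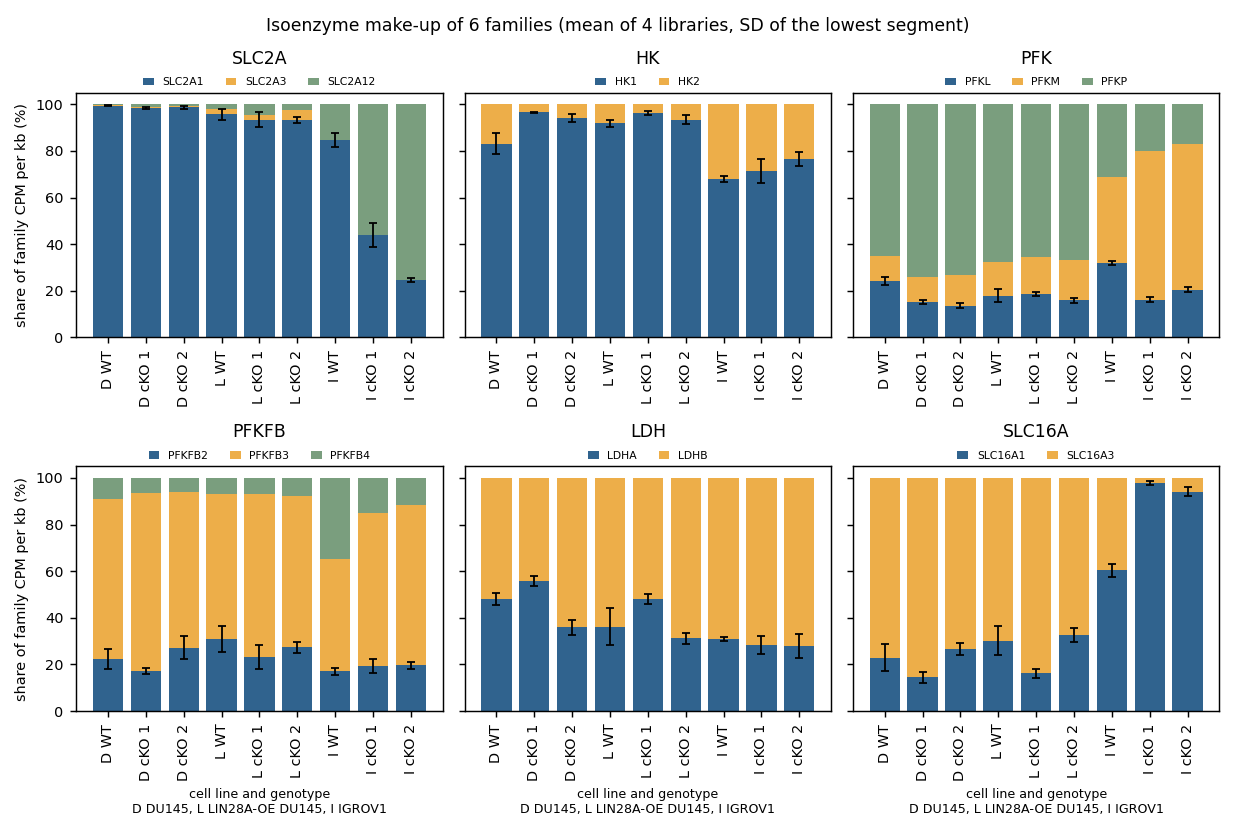
Stacked shares (percent of summed CPM per kb) of the members of 6 gene families in the 9 groups, as means of 4 libraries with the SD of the lowest segment. In IGROV1 SLC2A12 goes from 15.2% of its family in WT to 56.1% and 75.3% in the clones, and SLC16A3 from 39.6% to 2.17% and 5.95%.

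Other genes of the pathway were followed by list. Of 18 known targets of hypoxia-inducible factors outside the 34 genes, 17 were tested, and in the IGROV1 cKO lines 8 fell and 1 rose, with a median log2 fold change of -0.44. For this and the other lists, the shares of all tested genes are those of each comparison: 18.1% lower and 15.1% higher in IGROV1, 10.2% and 7.84% in DU145, 10.6% and 7.35% in LIN28A-OE DU145, 2.55% and 6.67% with LIN28A in WT, and 9.76% and 13.9% with LIN28A in mutants. ADM (adrenomedullin) fell by 1.07 on the log2 scale, P4HA2 (a collagen prolyl hydroxylase) by 0.85 and the mitophagy receptor BNIP3 by 0.76, and EGLN3, an oxygen-sensing prolyl hydroxylase, rose by 2.46. In DU145 5 of the 17 fell and 2 rose (median -0.25), with ADM 4.55, BNIP3L -1.61, BNIP3 -1.20 and P4HA1 -1.06, and in LIN28A-OE DU145 4 fell and 3 rose (median -0.22), with ADM 3.27 and EGLN3 1.84. ADM fell in IGROV1 and rose in both DU145 backgrounds. With LIN28A, 2 rose and 2 fell in WT and 2 rose and 1 fell in mutants.

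Of 15 regulators of the pathway, a list that holds LIN28A and LIN28B, 14 were tested. In the IGROV1 cKO lines 5 fell and 1 rose. HIF1A itself went from 801 to 268 CPM, log2 fold change -1.59, SE 0.19, and MYCN fell by 2.45, PPARGC1A by 1.27 and MLXIP by 1.12. In the DU145 cKO lines and in their LIN28A-OE forms 2 rose in each and 0 fell by edgeR's test (at an unadjusted p under 0.05, 0 and 2 were lower). In the LIN28A-OE forms the genes that rose include the introduced LIN28A itself (2.09). TXNIP, which restrains glucose uptake, rose by 2.89 in DU145 and EPAS1 (HIF-2 alpha) by 0.74 and 0.73. With LIN28A, 3 regulators rose in WT, among them MLXIPL (1.00) and EPAS1 (0.78), and 4 rose and 1, TXNIP (-1.55), fell in mutants.

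Of 27 other glycolytic and gluconeogenic genes 21 were tested, and 3 rose and 3 fell in the IGROV1 cKO lines, among them FBP2 (1.87), PC (1.24, pyruvate carboxylase) and HKDC1 (-1.85, a further hexokinase). In DU145 2 rose and 1 fell, with HKDC1 1.10 and PCK2 -1.15, and in LIN28A-OE DU145 HKDC1 alone rose (1.44). HKDC1 fell in IGROV1 and rose in DU145. With LIN28A in mutant cells 5 of the 21 rose and 1 fell, with FBP2 1.63 and SLC2A10 1.11, and in WT 0 were called by edgeR's test (5 at an unadjusted p under 0.05). Of 11 further genes of pyruvate and monocarboxylate transport, 5 rose and 1 fell in IGROV1. The transporter gene SLC16A4 went from 40.3 to 1.55 CPM, log2 fold change -4.90, SE 0.21, and SLC16A6 rose by 1.87, the pyruvate dehydrogenase phosphatase PDP1 by 1.07 and the mitochondrial pyruvate carrier subunit MPC1 by 0.81. In DU145 2 rose and 1 fell, in LIN28A-OE DU145 1 rose, and with LIN28A in mutant cells 2 rose, SLC16A7 by 1.41. Of 19 genes of the branches into pentose phosphate, serine, hexosamine and glycogen metabolism, 4 fell and 2 rose in IGROV1, with the glycogen phosphorylases PYGB (-1.26) and PYGL (-1.09) lower, and 4 fell in DU145, PSAT1 (-0.88), PHGDH (-0.69) and SHMT2 (-0.64) of serine and folate metabolism and GFPT1 (-0.63) of hexosamine synthesis. With LIN28A in mutant cells 5 rose, among them PSAT1 (0.74) and PHGDH (0.70), and 2 fell. In LIN28A-OE DU145 2 genes of these branches fell in the cKO lines, among them PGD (-0.62), and with LIN28A in WT 2 rose, among them PGD (0.89), and 1 fell.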

How the data were processed

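Poly(A)-selected RNA of 36 samples was sequenced single-end from strand-marking libraries. Per the labels and the study's methods, the authors trimmed reads with Trimmomatic 0.39, removed ribosomal RNA with sortmeRNA, aligned to hg38 with HISAT2 2.1.0 and deposited raw counts per gene from HTSeq; the annotation and strand setting are not given in the sources used here. Rows that name no gene held 21.9 to 30.1% of reads and were left out. The 36 small RNA libraries were not used. Gene counts of 7195437 to 25054688 per library limit precision for genes with few reads.

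Counts were fitted in R 4.3.3 with edgeR 4.0.16: genes kept by filterByExpr over the 9 groups, TMM scaling, 1 quasi-likelihood fit of all 36 libraries, Benjamini-Hochberg adjustment over 15556 genes and a call at an adjusted p below 0.01. Pooled comparisons weigh both clones equally. The fit was tested on simulated counts. Alternatives were DESeq2 1.42.0, other scalings, filters, thresholds and sets of libraries, a replicate block and each library left out. Levels per kb use MANE Select lengths (GENCODE v44, hg38). No 2 libraries of a group agreed within sampling noise. Full values are given for up to 6 called members with the largest change per comparison and for members whose clones changed in opposite directions, and up to 4 called genes of each wider list are named. Replicate numbers come from the labels. Deviations of same-numbered libraries correlated above 0.1 in every pair between the DU145 clones (0.116 to 0.533, 4 pairs), where they were taken to pair the libraries, and not in every pair of any other comparison. The IGROV1 clones missed this rule narrowly, with 3 of 4 pairs above 0.1 (0.0991 to 0.744). The main fit held no replicate term, also for the DU145 clones, and the replicate block was an alternative. The members and lists were chosen with earlier results of these data known.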

Additional observations from a re-analysis of the deposited data

Results flagged for a closer look

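In 20 of 306 groups of 4 libraries, 1 library lay far from the other 3 by Dixon's test. Chance would give about 1 in 20 groups if they were independent. These groups are 34 genes in the same 36 libraries, so the number cannot be set against that share. Among the hexokinase, phosphofructokinase and aldolase genes, HK1 was low in IGROV1 WT replicate 2 (187 CPM, beside 206 to 209), PFKL high in DU145 cKO 2 replicate 4 (109, beside 91.3 to 93.7), ALDOA high in LIN28A-OE DU145 cKO 2 replicate 1 (1437, beside 1147 to 1197) and ALDOC high in LIN28A-OE DU145 WT replicate 1 (1.84, beside 0.667 to 0.782). Lower in the pathway, TPI1 was high in LIN28A-OE DU145 WT replicate 1 (464, beside 286 to 302) and low in IGROV1 WT replicate 4 (902, beside 921 to 921), GAPDH high in DU145 WT replicate 1 (5711, beside 3849 to 4049), PGAM1 high in DU145 cKO 1 replicate 4 (171, beside 123 to 130.5), and PKM high in DU145 cKO 2 replicate 4 (4118, beside 3078 to 3198). ENO3 was high in DU145 WT replicate 2 (4.81, beside 3.10 to 3.39) and in LIN28A-OE DU145 cKO 2 replicate 4 (35.0, beside 27.9 to 29.1), and LDHB was low in IGROV1 cKO 2 replicate 4 (806, beside 1054 to 1083). Among the pyruvate dehydrogenase genes, PDK1 was low in DU145 cKO 1 replicate 4 (10.0, beside 15.5 to 16.5), PDK2 high in IGROV1 cKO 1 replicate 4 (44.2, beside 16.4 to 17.1), PDHA1 high in LIN28A-OE DU145 WT replicate 1 (65.2, beside 48.6 to 49.3) and low in LIN28A-OE DU145 cKO 2 replicate 3 (42.2, beside 45.4 to 46.0), and PDHB high in IGROV1 cKO 1 replicate 3 (218, beside 199 to 201). SLC16A1 was low in DU145 cKO 1 replicate 4 (128, beside 167 to 171) and in IGROV1 cKO 2 replicate 4 (94.0, beside 138 to 147), and TIGAR was low in IGROV1 cKO 1 replicate 4 (32.0, beside 50.9 to 52.6). Of these 20, 13 were in the 6 libraries that stood apart from their groups.

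The effect of the TUT4/7 genotype differed between groups in 18 tests of the difference itself (edgeR's quasi-likelihood test, adjusted over all genes). With and without LIN28A in DU145, it differed by log2 1.17 for HK2 and -1.53 for ENO3. Between IGROV1 and DU145, the difference (IGROV1 minus DU145) was -0.95 for SLC2A1, -3.51 for SLC2A3 and 1.12 for SLC2A12 among the transporters, -0.53 for HK1 and 1.09 for HK2, 0.72 for PFKM and -0.81 for PFKP, -0.52 for PFKFB2 and -1.55 for PFKFB4, -1.41 for ALDOC and -4.66 for ENO2, 0.68 for PDK3 and 0.50 for PDHA1, -1.43 for SLC16A1 and -5.84 for SLC16A3, and 3.42 for FBP1. The adjusted p ranged from 2.9e-21 for SLC16A3 to 0.0068 for SLC2A12.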

How the results depend on the processing

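No log2 fold change of the 34 genes in 11 comparisons reversed a call under any alternative. With DESeq2 359 of these 374 results kept their side of the threshold, with RLE size factors 366, with library totals alone 358, without a filter on low counts 363, and with only the groups of a comparison in the fit 328. At an adjusted p under 0.05, the 7 calls in LIN28A-OE DU145 mutants became 11, the 8 between IGROV1 clones 13, the 12 between LIN28A-OE clones 19, and calls shared by both clones 5 in LIN28A-OE DU145 (from 2) and 5 for LIN28A in mutants (from 2). With a log2 change of at least 0.5, LIN28A in mutants went from 14 to 8 calls and shared calls in LIN28A-OE DU145 to 1, as they did with RLE size factors, without the filter and with only its groups fitted. Shared calls for LIN28A in mutants became 4 with library totals, with DESeq2 and with the replicate block. Fitting only the groups of a comparison left 3 of 13 calls for LIN28A in WT, 2 of 8 between IGROV1 clones, 0 of 2 for the interaction and 0 of 2 shared calls for LIN28A in mutants. Fewer libraries then set the spread.

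Leaving out the 6 libraries that stood apart, or adding the length slope as a term, were alternatives chosen after seeing the data. Without the libraries, calls became 14 in LIN28A-OE DU145 mutants and 5 for the interaction, and shared calls 5 in LIN28A-OE DU145 and 5 for LIN28A in mutants. With the slope, calls became 20 in DU145 mutants, 13 in LIN28A-OE DU145 mutants, 7 for LIN28A in mutants and 6 for the interaction, and shared calls 21 in IGROV1 (from 13) and 0 for LIN28A in mutants. The cause was not tested.

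With each library left out in turn, calls ranged from 18 to 26 in IGROV1 mutants, 7 to 9 in DU145 mutants, 5 to 8 in LIN28A-OE DU145 mutants, 8 (without DU145 WT replicate 1) to 18 for LIN28A in WT, 9 (without LIN28A-OE DU145 cKO 1 replicate 3, DU145 cKO 1 replicate 4 or DU145 cKO 2 replicate 4) to 14 for LIN28A in mutants, 0 to 3 for the interaction, 12 to 16 between IGROV1 and DU145 effects, 19 to 21 between WT lines, and 5 (without IGROV1 cKO 2 replicate 1 or 2) to 9, 8 to 11 and 10 to 14 between the clones of IGROV1, DU145 and LIN28A-OE DU145. Shared calls ranged from 12 to 14, 4 to 6, 1 to 2 and 0 to 2. Of the levels, 270 of 306 moved by less than 1 SD with library totals alone.

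With the replicate number as a block, 26 genes were called in IGROV1 mutants (from 25), 11 in DU145 mutants (from 10), 8 in LIN28A-OE DU145 mutants, 16 for LIN28A in WT, 15 for LIN28A in mutants and 15 between LIN28A-OE clones (from 12), and no call was lost. Outside the DU145 clones the numbers were not taken to pair the libraries, although same-numbered LIN28A-OE libraries share a passage number and 9 of 12 such pairs correlated above 0.1 there, with HK1, LDHB and SLC16A1 gained between the LIN28A-OE clones. Between the IGROV1 clones 3 of 4 pairs correlated above 0.1, up to 0.744, and the block changed no call there. Depth limits SLC2A3 and FBP1 in IGROV1, which rest on 3 to 77 counts a group.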
